A study of Danio rerio with 6 samples.

Results

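The genes described here encode Tal1, Lmo2 and the factors that work with them, measured in *drl:EGFP*-expressing cells of zebrafish embryos. Members were chosen by gene symbol, and 9 of the 10 genes of the set (*tal1*, *lmo2*, *lmo1*, *lmo4a*, *lmo4b*, *ldb1a*, *gfi1aa*, *gfi1b* and *runx1*) were found, with 12 of the 75212 transcript clusters on the array. A transcript cluster is the group of probes that stands for a gene or for a piece of one. No cluster carries the symbol *lyl1*, the closest relative of *tal1*, which was therefore not analysed here.

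Both fractions came from embryos of 1 family of homozygous *drl:EGFP* transgenic fish, whose EGFP is driven by the *cis*-regulatory element of *draculin* (*drl*). Fish were mass-mated on 3 occasions, so each array holds RNA pooled over many embryos at the 2 somite stage, and sorting left out dead cells with propidium iodide. The EGFP-positive fraction (n = 3 arrays) was compared with the EGFP-negative fraction (n = 3 arrays), which holds live cells without EGFP of the same transgenic family. Values are log2 signals of one-colour Affymetrix arrays, with array medians of 5.02 to 5.10. Arrays have no read depth, and precision is limited by how many there are. In such bulk samples fewer cells of a type and less RNA per cell cannot be told apart.

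Tal1 (also called Scl) is a basic helix-loop-helix protein needed to form blood and to shape early endothelium. It binds DNA as a dimer with an E protein. The LIM-only protein Lmo2, which does not touch DNA itself, bridges this dimer to a Gata factor and is bound by the adaptor Ldb1. Gfi1 and Gfi1b are zinc-finger repressors that act in blood progenitors and recruit histone-modifying corepressors, and Runx1 is a Runt-domain factor needed for haematopoietic stem cells to emerge.

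Marker genes of several tissues were compared between the fractions. All 5 lateral plate markers (*drl*, *hand2*, *tbx20*, *gata5* and *osr1*) were higher in EGFP-positive cells by limma at an adjusted p under 0.09. The element of *drl* drives the EGFP used for sorting, and the lists were chosen with earlier results known. These markers are therefore not an independent check of the sort. Summed on the linear scale, their signal was 6793 to 7380 in EGFP-positive and 419 to 729 in EGFP-negative arrays. Of 8 neural plate markers 5 were lower, with sums of 3186 to 3946 in EGFP-positive and 8124 to 8917 in EGFP-negative arrays. The others, *otx2*, *zic2a* and *pax2a*, did not pass (log2 differences -0.43, -0.42 and 0.23). Their mean EGFP-positive log2 signals of 9.46, 9.53 and 9.58 were the highest of the list, so they weigh most in that sum. A further cluster of *pax2a* was higher (log2 difference 0.48, limma adjusted p = 0.018). Of 6 epidermis markers 5 were lower, with sums of 2252 to 3018 in EGFP-positive and 8294 to 9895 in EGFP-negative arrays. Most markers of these lists were thus lower in the EGFP-positive fraction. The summed signal of both lists remained measurable there, for the neural plate list largely through markers that did not pass.

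Of the 9 measured genes, 5 were higher in EGFP-positive cells (*tal1*, *lmo2*, *lmo4a*, *gfi1b* and *lmo1*), none was lower and 4 did not pass the threshold. Over all 25851 named genes, 4.13% were called higher and 3.49% lower. Counted by cluster, 7 of the 12 were higher, against 2.96% of all clusters. The pair *tal1* and *lmo2* were at least 5-fold higher, against 0.251% of named genes. The median log2 difference over the 9 genes was 1.21, and over all named genes it was -0.0045. In 7 genes every EGFP-positive array lay above every EGFP-negative array, an arrangement seen in 12.9% of named genes. In *lmo4b* it was the reverse, and in *runx1* the fractions overlapped, while 25.4% of named genes did not overlap in one direction or the other. The members were chosen with earlier results of these data known. Their counts beside these shares are therefore descriptive and not independent evidence of enrichment. For a single gene, permuting 3 against 3 arrays exactly allows no p under 0.1 (two-sided), so calls rest on limma with adjustment over all clusters. The call of *lmo1* was the least secure and was lost when any of 5 single arrays was left out.

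**Figure D1:**
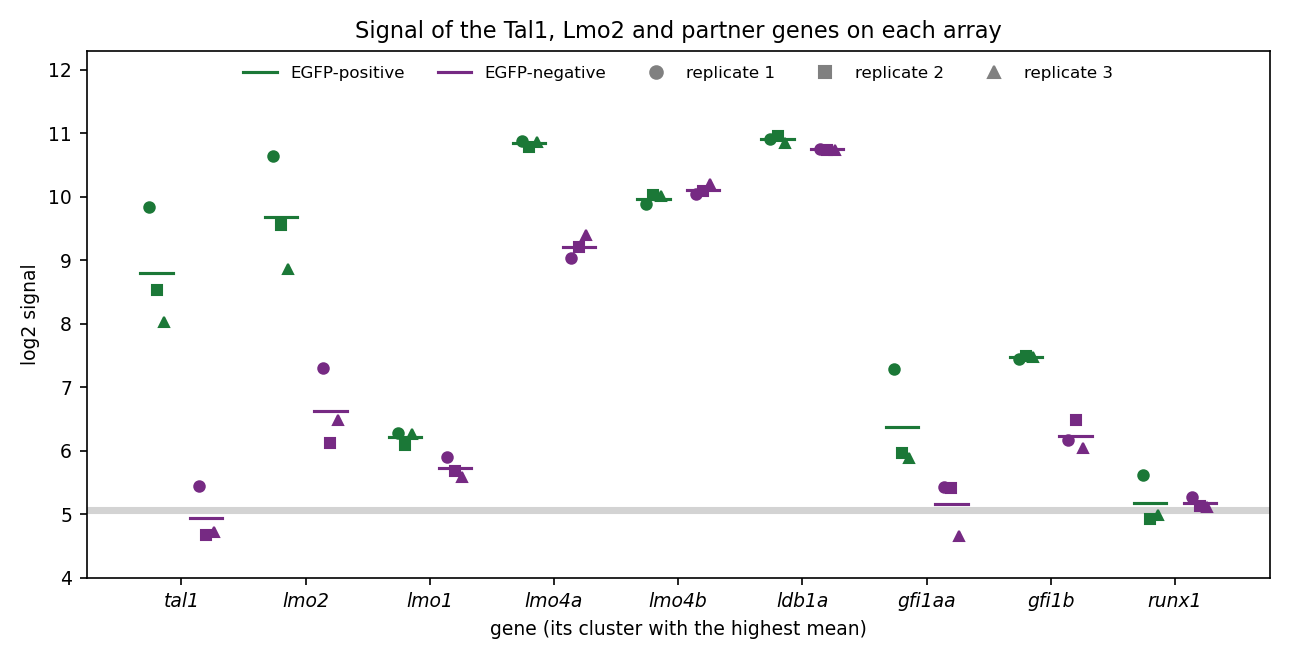
Log2 signal (vertical axis) of the 9 genes on each array, EGFP-positive to the left of EGFP-negative, with symbols for the replicates, a bar at the mean of 3 arrays and a grey band for the array medians of 5.02 to 5.10. *tal1* and *lmo2* stand furthest apart between the fractions and spread most among the EGFP-positive arrays, while *lmo4b* and *ldb1a* are nearly level.

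The haematopoietic regulator *tal1* showed the largest difference among the members. Its cluster of 23 probes lies on the forward strand of chromosome 22 of Zv9 from 16757547 to 16767302. The log2 signals were 9.84, 8.53 and 8.03 in EGFP-positive replicates 1 to 3, and 5.45, 4.67 and 4.72 in EGFP-negative replicates 1 to 3. The lowest EGFP-positive array was 2.58 above the highest EGFP-negative array on the log2 scale. The EGFP-negative values lie close to the array medians, where weak expression and probe background were not distinguished, so the 14.5-fold ratio is approximate. On the log2 scale the difference was 3.86 ± 0.46 (SE, limma adjusted p = 0.00556).

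Among the 4 LIM-only genes, *lmo2*, the partner of Tal1 in blood and vessel precursors, was 8.27-fold higher. Its cluster of 22 probes runs along the forward strand of chromosome 18 of Zv9 from 36726166 to 36733976. Log2 signals of *lmo2* were 10.64, 9.55 and 8.86 in EGFP-positive arrays, and 7.30, 6.12 and 6.48 in EGFP-negative arrays. Unlike *tal1*, *lmo2* therefore had a signal above the array medians in every EGFP-negative array too. On the log2 scale the difference was 3.05 ± 0.48 (SE, limma adjusted p = 0.0182).

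Another pair of clusters carries the symbol *lmo2* but is listed on the reverse strand, inside the span of the gene and close to its 3′ end. The first, of 21 probes from 36732951 to 36733524, gave 7.89, 7.21 and 6.62 in EGFP-positive and 5.83, 5.80 and 5.78 in EGFP-negative arrays. It was 2.72-fold higher (limma adjusted p = 0.0464), a call that was lost without EGFP-positive replicate 2 or without any single EGFP-negative array, at an adjusted p of up to 0.142. The second, of 21 probes from 36733738 to 36733948, gave 5.87, 4.92 and 5.13 in EGFP-positive and 4.91, 4.64 and 4.64 in EGFP-negative arrays (adjusted p = 0.338 from limma). Both had their highest EGFP-positive value on replicate 1, as the forward cluster did. Whether these probes detect a transcript of the opposite strand or that of *lmo2* was not tested, and the mean of all 3 clusters gave *lmo2* a log2 difference of 1.69.

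The gene *lmo4a*, one of a pair of zebrafish copies of LMO4, was 3.08-fold higher and varied little between arrays. Its cluster of 19 probes lies on the forward strand of chromosome 5 of Zv9 from 34542567 to 34564153. Signals were 10.88, 10.78 and 10.86 in EGFP-positive arrays, and 9.04, 9.21 and 9.40 in EGFP-negative arrays. On the log2 scale the difference was 1.62 ± 0.11 (SE, limma adjusted p = 0.000654). All 6 values are far above the array medians, so this ratio does not rest on signal near background. A cluster of 25 probes on the reverse strand, from 34563880 to 34564022 at the 3′ end of *lmo4a*, gave 6.36, 6.15 and 6.22 in EGFP-positive and 4.08, 4.20 and 4.49 in EGFP-negative arrays (limma adjusted p = 0.000507). Its EGFP-negative values lie below the array medians, so its ratio of 3.97 is approximate.

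The other copy, *lmo4b* (reverse strand of chromosome 6 of Zv9, 25668493 to 25687627), had nearly the same signal in both fractions. Its values were 9.88, 10.03 and 10.01 in EGFP-positive arrays, and 10.05, 10.09 and 10.20 in EGFP-negative arrays. The log2 difference was -0.14 with a 95% interval of -0.34 to 0.07 (adjusted p = 0.554 from limma), so a change of the size of *lmo4a* lies outside the interval. Subtracting *lmo4b* from *lmo4a* within each array gave a difference of 1.76 on the log2 scale between the fractions, with a standard error of 0.09 (n = 3 arrays each). This pair was chosen after its values were seen, and no test was made of it.

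The gene *lmo1*, best known from the nervous system and from T-cell leukaemia in humans, passed the threshold narrowly. Its cluster of 16 probes spans 29445656 to 29484581 of chromosome 7 (Zv9, reverse strand). Signals were 6.28, 6.09 and 6.26 in EGFP-positive arrays, and 5.90, 5.68 and 5.59 in EGFP-negative arrays, a separation of 0.19 between the nearest arrays. The ratio was 1.40, a log2 difference of 0.49 ± 0.11 (SE, limma adjusted p = 0.0763). The call was lost without any single array other than EGFP-negative replicate 1, at an adjusted p of 0.124 to 0.224, and also after quantile normalization again (adjusted p = 0.135), with centring on the median (adjusted p = 0.12) and with an intensity trend (adjusted p = 0.0995).

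Within the LIM-only genes the difference of *lmo2* was set against the others by an exact two-sided permutation test of the within-array difference, with adjustment over the 4 pairs run, *gfi1b* against *gfi1aa* included. The log2 difference of *lmo2* exceeded that of *lmo1* by 2.56 ± 0.58 (SE) and that of *lmo4b* by 3.18 ± 0.67 (SE), and in both pairs the fractions did not overlap (exact p = 0.1, adjusted p = 0.2 for each). It exceeded that of *lmo4a* by 1.42 ± 0.66 (SE), where the fractions overlapped (exact p = 0.2, adjusted p = 0.267). None can pass at this sample size. With the mean of all clusters of each gene the excess over *lmo4a* was -0.12, since this mean takes in the reverse-strand clusters.

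**Figure D2:**
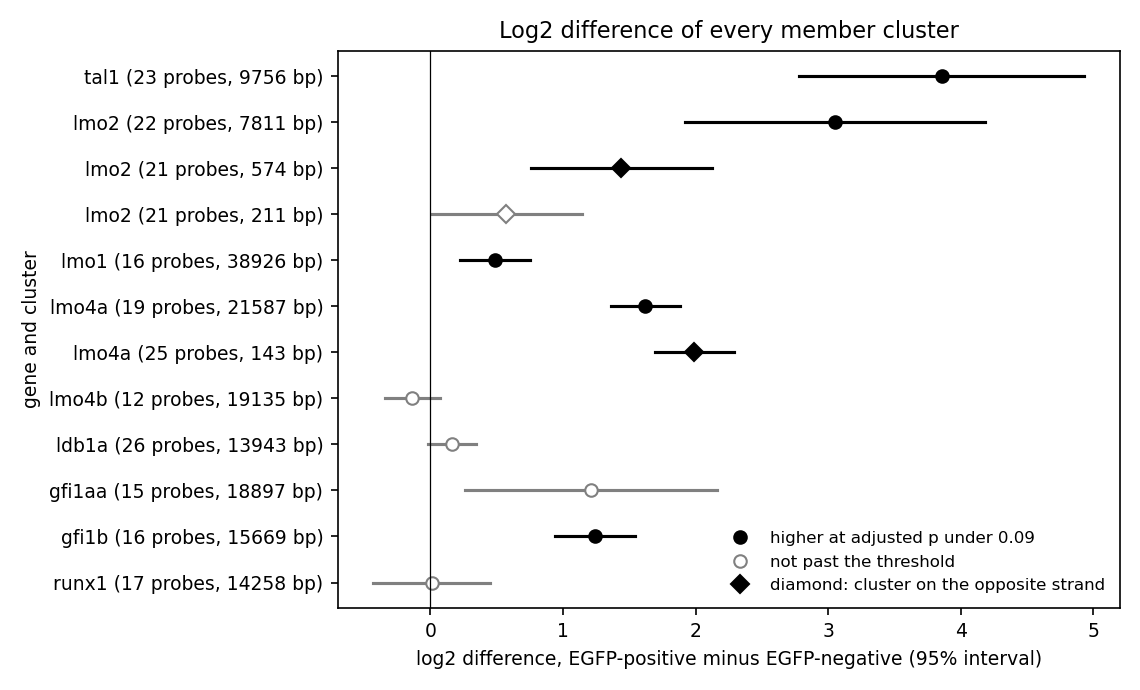
Log2 difference, EGFP-positive minus EGFP-negative, of all 12 member clusters (points) with 95% intervals from limma (lines), labelled with the number of probes and the length of each cluster. Filled symbols passed an adjusted p under 0.09, and diamonds are the 3 clusters on the strand opposite to the gene. *tal1* and *lmo2* have the largest differences and the widest intervals, and the intervals of *lmo4b*, *ldb1a* and *runx1* include 0.

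The adaptor gene *ldb1a*, whose product dimerises and holds LIM-only and LIM-homeodomain proteins in large complexes, was strongly and evenly expressed. Its cluster of 26 probes lies on the forward strand of chromosome 13 of Zv9 from 28955703 to 28969645. Signals were 10.91, 10.96 and 10.85 in EGFP-positive arrays, and 10.76, 10.74 and 10.74 in EGFP-negative arrays. The arrays of the fractions did not overlap, but the log2 difference was only 0.16, with a 95% interval of -0.02 to 0.34 (adjusted p = 0.409 from limma).

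Of the Gfi genes, which encode repressors of blood progenitors, *gfi1b* passed and *gfi1aa* did not, with ratios of 2.36 and 2.31. The cluster of *gfi1b*, 16 probes over 15791894 to 15807562 of chromosome 21 (Zv9, reverse strand), gave 7.44, 7.49 and 7.48 in EGFP-positive arrays, and 6.17, 6.49 and 6.04 in EGFP-negative arrays. On the log2 scale *gfi1b* was higher by 1.24 ± 0.13 (SE, limma adjusted p = 0.00299). The cluster of *gfi1aa*, 15 probes on the forward strand of chromosome 2 of Zv9 from 10558049 to 10576945, gave 7.29, 5.96 and 5.88 in EGFP-positive arrays, and 5.43, 5.41 and 4.66 in EGFP-negative arrays. Here the log2 difference was 1.21 ± 0.40 (SE, limma adjusted p = 0.218). The arrays of *gfi1aa* were separated by 0.45, and EGFP-positive replicate 1 lay well above the other EGFP-positive arrays. With that array left out the log2 difference was 0.75. The excess of *gfi1b* over *gfi1aa* was 0.03 ± 0.51 (SE, exact permutation p = 1, adjusted p = 1). When limma was fitted again on clusters with a symbol only, *gfi1aa* passed as well (adjusted p = 0.0763 from limma). That setting changes the variance estimates as well as the adjustment.

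The stem cell regulator *runx1* had signals at the array medians in both fractions. Its cluster of 17 probes, on the forward strand of chromosome 1 of Zv9 from 1063376 to 1077633, gave 5.62, 4.93 and 4.99 in EGFP-positive arrays, and 5.28, 5.13 and 5.11 in EGFP-negative arrays. The log2 difference was 0.01 with a 95% interval of -0.43 to 0.45 (adjusted p = 0.989 from limma). At this signal *runx1* expression and probe background were not distinguished.

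The members also differed in how much they varied within the EGFP-positive fraction. The standard deviation over its 3 arrays was 0.93 for *tal1*, 0.89 for *lmo2* and 0.79 for *gfi1aa*, against 0.05 for *lmo4a* and 0.03 for *gfi1b*. The median over all named genes was 0.11. In *tal1*, *lmo2* and *gfi1aa* replicate 1 was highest and replicate 3 lowest. The same order held in *etv2*, which specifies blood and vessel precursors (10.24, 9.26 and 8.87), in *fli1a*, an ETS factor of endothelium (9.89, 9.11 and 9.09), and in *tie1*, an endothelial receptor kinase (7.48, 7.16 and 6.75). These genes were chosen after their values were seen. Of the 6 genes of the blood and vessel list called higher, 3 were highest in replicate 1, and the embryonic globin genes *hbbe1.1* (9.22, 9.25 and 9.07) and *hbae1.1* were highest in replicate 2. The order did not hold in *drl* (9.73, 9.99 and 10.07). Among the other lateral plate markers it held in the cardiac T-box gene *tbx20* (9.61, 9.19 and 8.68). It held within a narrow range in *hand2* (9.19, 9.12 and 9.09), a regulator of heart and lateral plate. Replicate 1 was also highest in *gata5* (11.18, 10.99 and 10.99), but replicate 2 was highest in *osr1* (11.47, 11.53 and 11.41). In *hnf1bb* (10.46, 9.47 and 9.30), a kidney and gut gene, the order held too. That gene was found by its likeness to *tal1* and *lmo2* over the same arrays (below), so its order was largely set by the choice. With *tbx20* among the genes that had it, the order was not confined to blood and vessel genes.

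EGFP-negative replicate 1 was likewise the highest EGFP-negative array for *tal1*, *lmo2* and *gfi1aa*, in *gfi1aa* by little (5.43 against 5.41). Over the 9 members, *tal1*, *lmo2* and *gfi1aa* included, replicate 1 was highest for 6 in the EGFP-negative and for 6 in the EGFP-positive fraction. In EGFP-negative arrays the others were *lmo1*, *ldb1a* (10.76 against 10.74) and *runx1*. In EGFP-positive arrays they were *lmo1* (6.28 against 6.26), *lmo4a* and *runx1*. The share over all named genes is not given here, so whether this is particular to these genes was not tested. Whether arrays of 1 number share a collection of embryos is not given in the labels. Markers of other tissues differed between the EGFP-positive arrays too, with epidermis sums of 2252, 2424 and 3018 and neural plate sums of 3186, 3789 and 3946 in replicates 1 to 3, while the lateral plate sums were 7380, 7158 and 6793. The part of these markers in the spread was not tested. With EGFP-positive replicate 1 left out the log2 difference was 3.34 for *tal1* (adjusted p = 0.00494 from limma) and 2.57 for *lmo2* (adjusted p = 0.0316 from limma), so both calls held without it.

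**Figure D3:**
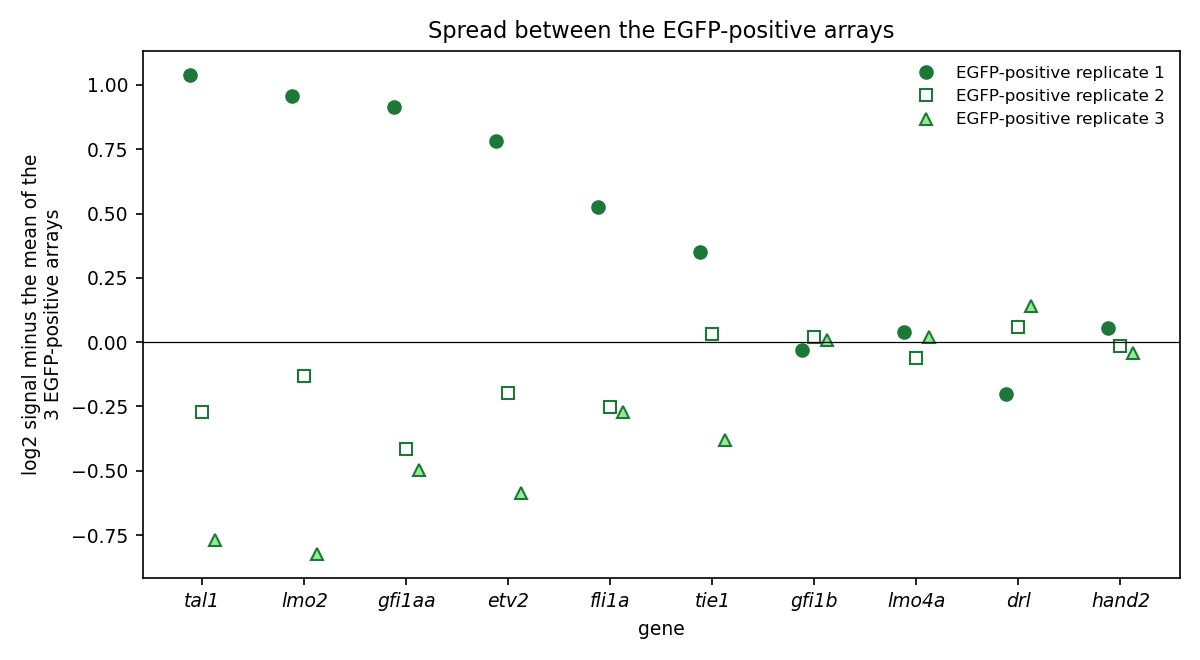
Log2 signal of each EGFP-positive array minus the mean of the 3 EGFP-positive arrays (vertical axis) for 10 genes, with a symbol for each replicate. In *tal1*, *lmo2*, *gfi1aa*, *etv2*, *fli1a* and *tie1* replicate 1 lies above and replicate 3 below the other arrays, in *fli1a* by little (9.09 against 9.11). *gfi1b*, *lmo4a* and *hand2* stay close to 0, and in *drl* replicate 1 is lowest. Of genes not drawn, *tbx20* (9.61, 9.19 and 8.68) has the same order and the globin gene *hbbe1.1* (9.22, 9.25 and 9.07) does not.

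The genes whose pattern over the 6 arrays was nearest to that of *tal1* were *etv2*, *tbx20*, si:dkey-95h12.1, *hnf1bb* and *lmo2*, with root mean square distances between centred log2 profiles of 0.27, 0.37, 0.38, 0.41 and 0.43. They were searched among named genes past the threshold. Their ratios were 15.7-fold for *etv2*, 17.0-fold for *tbx20*, 11.9-fold for si:dkey-95h12.1 and 9.37-fold for *hnf1bb*, a homeobox gene of kidney and gut. The ratios of *tbx20* and si:dkey-95h12.1 are approximate, as that of *tal1* is, because their EGFP-negative signals (5.24, 4.78 and 5.19 for *tbx20*, and 4.99, 4.95 and 4.37 for si:dkey-95h12.1) lie close to or below the array medians. For *etv2*, 1 of the EGFP-negative signals (5.72, 5.03 and 5.71) lies at the array medians, so its ratio is approximate too. For *lmo2* the nearest were *hnf1bb*, the neuropilin gene *nrp1b*, *fli1a*, *tal1* and LOC100331974, at distances of 0.35, 0.41, 0.43, 0.43 and 0.45. The lists thus share *hnf1bb*, and *tal1* and *lmo2* stand in each other's list. These distances describe likeness over 6 arrays of 2 fractions and carry no test.

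Genes that work with these factors were examined in 5 lists, in which 7.62% of all named genes give the background share past the threshold in either direction. Among 6 relatives of the members, *lmo3*, a LIM-only gene known from the nervous system, was lower, and 5 did not pass (median log2 difference -0.12). Signals of *lmo3* were 6.52, 6.40 and 6.57 in EGFP-positive arrays, and 8.38, 8.09 and 8.19 in EGFP-negative arrays (log2 difference -1.72, adjusted p = 0.000422 from limma). A further cluster of *lmo3* was lower by a smaller amount, with a value of -0.73 (limma adjusted p = 0.0428). The bHLH relative *tal2* was closest to no difference at -0.02, with signals of 4.80 to 4.98 in EGFP-positive and 4.79 to 5.01 in EGFP-negative arrays. The Gfi copy *gfi1ab* and the Runt genes *runx2a*, *runx2b* and *runx3* did not pass either, with log2 differences of -0.26 to 0.19. Signals of *tal2* lay below the array medians and those of *runx2a* and *runx3* near them, where expression and probe background were not distinguished.

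Of 8 measured E proteins, which pair with Tal1 on DNA, and Id inhibitors, which keep E proteins off DNA, 2 were higher and 6 did not pass (median 0.16). The Id gene *id3* gave 11.47, 11.28 and 11.51 in EGFP-positive arrays, and 9.80, 9.53 and 10.06 in EGFP-negative arrays (log2 difference 1.62, adjusted p = 0.00185 from limma). By contrast *id1* was level, at a log2 difference of -0.01. The E protein gene *tcf12* gave 9.75, 9.70 and 9.52 in EGFP-positive arrays, and 9.27, 9.17 and 9.21 in EGFP-negative arrays. Its log2 difference of 0.44 (adjusted p = 0.0556 from limma) was reduced to 0.19 by the mean of its 6 clusters (adjusted p = 0.366), and the call was lost without any single array but EGFP-positive replicate 3. The E protein gene *tcf3b* missed the threshold (log2 difference 0.34, limma adjusted p = 0.108).

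None of 6 measured adaptors of the LIM complex passed in limma, and 0 had an unadjusted p under 0.05 (median 0.15). These were the Ldb genes *ldb1b*, *ldb2a* and *ldb2b* and the genes *ssbp3a*, *ssbp3b* and *ssbp4* of single-stranded DNA-binding proteins that stabilise Ldb1. Their log2 differences ran from -0.07 to 0.22, and *ssbp4* was closest to none at 0.04. With *ldb1a*, the estimates of all 7 measured adaptor genes were therefore within 0.22 of no difference on the log2 scale. Standard errors were 0.20 for *ldb2a* and 0.26 for *ssbp3a*, so larger differences of these genes are not excluded.

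Of 8 measured genes for corepressors and the Runx partner Cbfb, *runx1t1* was higher and 7 did not pass (median -0.0032). This gene encodes a corepressor of the ETO family, and it gave 7.54, 7.26 and 7.05 in EGFP-positive arrays, and 5.68, 5.33 and 5.87 in EGFP-negative arrays (log2 difference 1.66, adjusted p = 0.00367 from limma). This value comes from a cluster of 13 probes on unplaced sequence. The other clusters of *runx1t1* had log2 differences of 0.97 and 0.40 and did not pass (adjusted p = 0.124 and 0.23 from limma). The histone deacetylase gene *hdac1* was level at 0.03, the demethylase gene *kdm1a*, a partner of Gfi1 proteins, stood at -0.04 and *cbfb* at -0.22 (adjusted p = 0.229 from limma).

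Of 16 measured partners and downstream genes in blood and vessel precursors, 6 were higher, *gata2a* was lower and 9 did not pass (median -0.0081). The list shares *drl* with the lateral plate markers, and several of its genes were known from earlier results of these data to be enriched. Besides *etv2* and *fli1a*, the genes called higher were *drl*, *tie1* and the embryonic globins *hbbe1.1* and *hbae1.1*, with log2 differences of 3.64, 1.98, 3.32 and 1.97. The EGFP-negative signals of *tie1* (5.17, 5.14 and 5.13) and *hbae1.1* (5.49, 5.09 and 4.94) lay near the array medians, so their differences are approximate. The vessel genes *kdrl*, *erg* and *fli1b* were level, at log2 differences of -0.05, -0.05 and -0.04. Neither *cdh5* (0.38, adjusted p = 0.217 from limma) nor *myb* (-0.84, adjusted p = 0.107 from limma) passed. Signals of *kdrl*, *fli1b* and *cdh5* lay near or below the array medians in both fractions. The Gata genes of this list encode factors that Lmo2 links to Tal1 in blood, and neither *gata1a*, *gata2a* nor *gata2b* was higher. Signals of *gata2a* were 8.99, 9.08 and 9.05 in EGFP-positive arrays, and 9.83, 10.14 and 10.12 in EGFP-negative arrays (log2 difference -0.99, adjusted p = 0.00397 from limma). The erythroid *gata1a* was near the array medians, at 5.09 to 5.34 in EGFP-positive and 5.21 to 5.80 in EGFP-negative arrays (adjusted p = 0.611 from limma). So was *gata2b*, at 4.89 to 5.16 in EGFP-positive and 5.25 to 5.54 in EGFP-negative arrays. For *gata1a* and *gata2b*, expression and probe background were therefore not distinguished. The homeobox gene *hhex* was closest to no difference at 0.03. The myeloid regulator *spi1b*, at 4.44 to 4.71 in EGFP-positive and 4.42 to 4.76 in EGFP-negative arrays, lay below the array medians in both fractions.

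**Figure D4:**
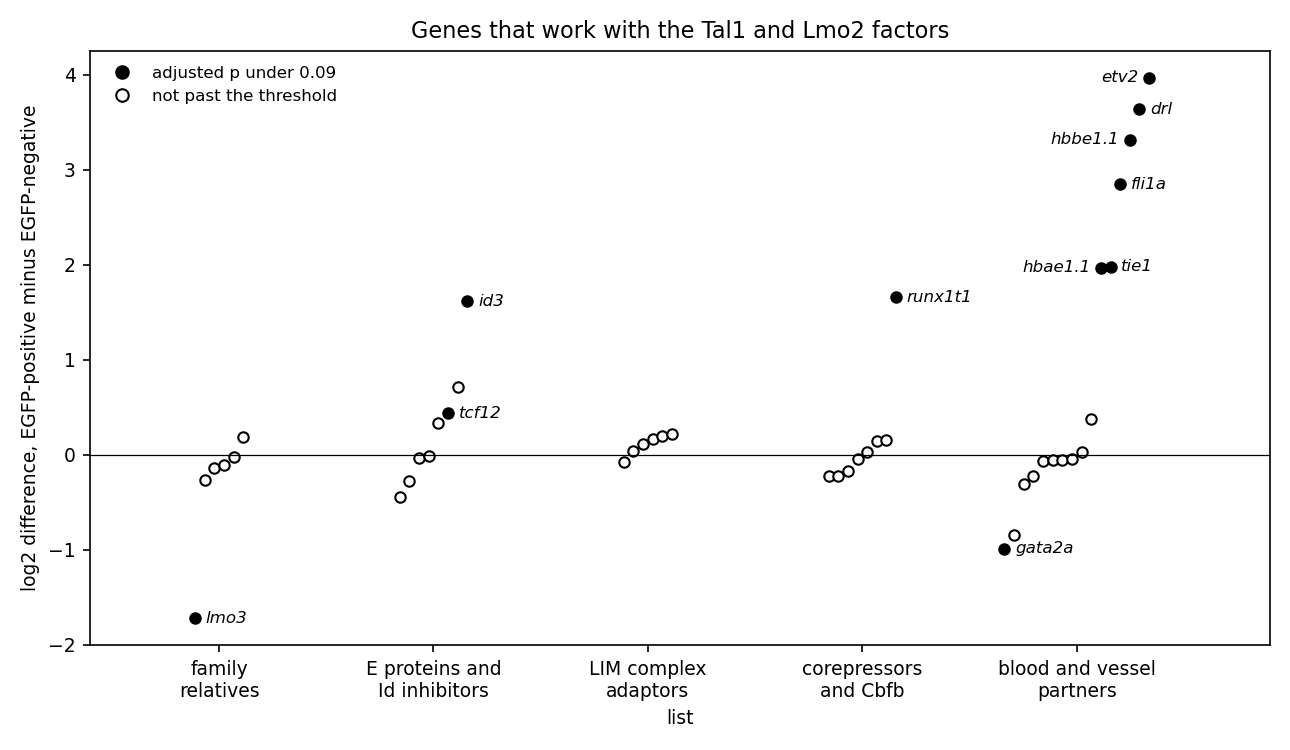
Log2 difference, EGFP-positive minus EGFP-negative (vertical axis), of each measured gene in the 5 lists of genes that work with these factors, sorted by value within a list. Filled points passed an adjusted p under 0.09 from limma and are named. No adaptor gene of the LIM complex passed, and the blood and vessel list holds 6 of the 9 genes called higher over all lists. That list is also the largest, with 16 measured genes, and several of them were known from earlier results of these data to be enriched.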

How the data were processed

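The authors corrected the background (MAS), normalized Affymetrix ZebGene-1_1-st arrays by RMA in ExpressionConsole and deposited log2 signals per transcript cluster, for chips designed on Zv9. Software versions are not given in the sources used here. The authors' deposited comparison table also holds log2 differences, statistics and p-values, which were not used. Its other columns, such as symbol, position, strand and number of probes, were used. Of 75212 clusters, 37268 have a symbol, and 4245 older symbols were brought to current ones through a table of RefSeq names (GRCz12tu), used for names only. List genes whose symbol is in the files kept it, and those listed there under an older symbol were found through that table and are given by the current one.

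The fractions were compared, EGFP-positive over EGFP-negative, with limma 3.58.1 (R 4.3.3, lmFit and eBayes, two-sided, no block) over all clusters, with a Benjamini-Hochberg adjusted p under 0.09, the false discovery rate of the study's methods with siggenes, a package not used here. For each gene the cluster of highest mean over the 6 arrays was used, leaving out clusters with several symbols. Named are all members with all clusters, every list gene past the threshold, the list gene nearest to no difference and the nearest profiles of *tal1* and *lmo2*, and a few other list genes were named after their values were seen. The members and lists were chosen with earlier results of these data known. The procedure was tested on simulated data. The study's methods describe 3 separate matings, and the labels only number the replicates within each fraction. No member cluster has the same 6 values as another cluster. Figures were drawn with matplotlib 3.10.9.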

Additional observations from a re-analysis of the deposited data

How the results depend on the processing

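The counts of calls, the members and most named genes were recomputed under 9 other settings and without each array in turn. The differences between paralogs were recomputed under quantile normalization again, centring on the median, cluster means and without each array. The tissue marker lists other than *drl* and *tbx20* and the profile distances were not recomputed. List genes that did not pass, such as *tcf3b*, were recomputed only where they were nearest to no difference. The calls of *tal1*, *lmo2*, *lmo4a* and *gfi1b* held in all of them, and the number of member genes called higher was 4 to 6. Of these calls that of *lmo2* came closest to being lost, at a limma adjusted p of 0.0745 without EGFP-negative replicate 3. Without single arrays, clusters called higher numbered 1275 to 2034 (2228 with all arrays) and clusters called lower 874 to 1118 (1384 with all arrays). Member genes called higher were then 4 to 5.

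The replicate numbers were not used as pairs. Deviations from the fraction means correlated at -0.03, 0.04 and 0.09 between arrays of the same number, and not every array correlated best with its own number. Such values over all clusters cannot show whether arrays of 1 number share a collection. With a replicate block 1745 clusters were higher and 1074 lower, 4 member genes were higher, and the calls of *lmo1* (adjusted p = 0.119 from limma) and *tcf12* (adjusted p = 0.121 from limma) were lost. The block lowered the limma adjusted p of *tal1* to 0.00433, of *lmo2* to 0.00763 and of *gfi1aa* to 0.107. It raised the limma adjusted p of *lmo4a* to 0.00618 and of *gfi1b* to 0.0143.

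Of the E protein and Id genes, 2 passed. Only 1 passed with a replicate block, with an adjusted p under 0.05 and with gene values averaged over clusters. With a filter on low values 4 passed, with limma fitted on clusters with a symbol only 5, and without single arrays 1 to 2. Averaging clusters also moved the excess of *lmo2* over *lmo1* to 1.20 and over *lmo4b* to 1.82, and turned that over *lmo4a* to -0.12. The excess of *gfi1b* over *gfi1aa*, which is near 0, was -0.01 after quantile normalization again and -0.23 to 0.50 without single arrays. Without single arrays, the excess of *lmo2* was 2.12 to 3.00 over *lmo1*, 0.97 to 1.85 over *lmo4a* and 2.66 to 3.61 over *lmo4b*.

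Log2 differences near 0 changed sign, none of them past the threshold. After quantile normalization again *runx1* stood at -0.00, *id1* at 0.01 and *hhex* at -0.04, and the mean of its clusters put *tal2* at 0.06. Without single arrays *runx1* ran from -0.21 to 0.14, *tal2* from -0.08 to 0.04, *id1* from -0.04 to 0.02, *ssbp4* from -0.03 to 0.09 and *hhex* from -0.04 to 0.12. The filter on low values, a mean log2 signal above 6 in at least 1 fraction, left no value for *runx1* or for the shorter reverse-strand cluster of *lmo2*. The planned contrast of *tal1* with *lyl1* was not run. Signals near or below the array medians limit *tal1*, *gfi1aa* and the reverse-strand cluster of *lmo4a* in EGFP-negative cells and *runx1* in both fractions. They also limit the shorter reverse-strand cluster of *lmo2* in EGFP-negative cells.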
